A study of Mus musculus with 2 samples.

Results

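The 10 genes described here mark and arm cytotoxic lymphocytes and T cells: Gzma, Gzmb, Prf1, Nkg7, Ccl5, Ifng, Cd3e, Trac, Klrd1 and Cd8a. They were chosen by name from the 32285 genes counted in 2 single-cell RNA libraries of mouse liver. Their unique molecular identifiers (UMIs, each standing for 1 captured RNA molecule) were summed over barcodes in 4 size classes, of 200 to under 400, 400 to under 500, 500 to under 1000 and at least 1000 UMIs, and barcodes of at least 200 UMIs that held 2 or more of the genes were counted. The GS-KO library was made from the liver of 1 mouse with floxed Glul, the gene of glutamine synthetase, that was given the virus AAV8-Cre. The control library was made from 1 mouse with the same floxed alleles that was given AAV8-GFP. Both mice were 11 weeks old at infection per the series' design, bore no tumors and were sampled 2 weeks after the virus, and the labels do not name the promoter that drives Cre. Livers were digested with collagenase II at 0.3 mg/mL, and hepatocytes and purified non-parenchymal cells were loaded together on a 10x 5-prime assay that the labels call both single-cell and single-nucleus.

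Cytotoxic lymphocytes, which are natural killer (NK) cells and CD8 T cells, store granzyme proteases and the pore-forming protein perforin in granules and release them onto target cells. T cells recognise targets through a receptor that signals through the CD3 chains, with CD8 as co-receptor on cytotoxic T cells, while NK cells use receptors of the lectin-like and immunoglobulin families. Both kinds of cell live in the liver sinusoids, next to the Kupffer cells and sinusoidal endothelial cells.

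The promoter sequences of 4 of the genes are shown because these genes stand for the granule proteases and for the T cell receptor and co-receptor genes. They are RefSeq sequences of the build GRCm38.p6, upstream of each gene's start and written 5′ to 3′ on the gene's own strand. Gzma is at chr13:113100982-113101231 and Gzmb at chr14:56262335-56262584, both on the minus strand and 250 bases long. Cd3e is at chr9:45009628-45009861 on the minus strand, 234 bases long, and Cd8a at chr6:71373177-71373426 on the plus strand, 250 bases long. Capitals mark matches, on either strand, to a Runx motif (TGTGGT), a T-box motif (GGTGTG) or an Ets motif (AGGAAG).
Gzma: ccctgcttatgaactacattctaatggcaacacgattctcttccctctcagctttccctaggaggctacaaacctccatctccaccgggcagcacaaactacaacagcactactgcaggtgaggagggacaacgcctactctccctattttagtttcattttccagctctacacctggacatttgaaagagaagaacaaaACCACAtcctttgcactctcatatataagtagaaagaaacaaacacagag
Gzmb: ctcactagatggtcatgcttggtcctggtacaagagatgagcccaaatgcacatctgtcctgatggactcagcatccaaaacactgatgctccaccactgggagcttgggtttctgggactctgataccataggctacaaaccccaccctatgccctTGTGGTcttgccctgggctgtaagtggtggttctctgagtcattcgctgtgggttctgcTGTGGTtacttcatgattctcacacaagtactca
Cd3e: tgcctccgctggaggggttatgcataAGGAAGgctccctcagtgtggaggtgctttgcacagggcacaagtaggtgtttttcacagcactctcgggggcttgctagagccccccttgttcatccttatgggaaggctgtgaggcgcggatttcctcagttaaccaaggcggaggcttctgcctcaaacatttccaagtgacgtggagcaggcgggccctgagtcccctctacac
Cd8a: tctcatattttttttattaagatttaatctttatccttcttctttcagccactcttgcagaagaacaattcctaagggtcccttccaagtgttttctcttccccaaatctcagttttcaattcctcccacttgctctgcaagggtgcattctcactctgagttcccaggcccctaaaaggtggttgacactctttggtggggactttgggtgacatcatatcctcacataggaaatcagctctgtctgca
The Gzma window held 1 Runx match, on the opposite strand, and the Gzmb window held 2. The Cd3e window held 1 Ets match, the Cd8a window held no match to any of the motifs, and no T-box match was present in these 4 windows. Of 32851 RefSeq promoter windows of up to 250 bases, 14.05% held the Runx motif, 16.28% the T-box motif and 29.48% the Ets motif, so each is common and a match describes the letters only. Promoter entries were found for 7 of the 10 genes, with none for Ccl5, Klrd1 and Trac.

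The GS-KO file held 175937 barcodes and 57973740 UMIs, and the control file held 166037 barcodes and 61635695 UMIs. Barcodes were small: among the 164330 GS-KO and 158493 control barcodes of at least 200 UMIs the median was 309 UMIs in GS-KO and 356 UMIs in control, and 1834 GS-KO and 1703 control barcodes reached 1000 UMIs. At least 500 UMIs were held by 11871 GS-KO and 13692 control barcodes, beside a stated minimum of 10000 cells in the labels. The targeted gene, Glul, stood at 14.1 counts per 1000000 UMIs (CPM) in GS-KO against 114 CPM in control, a ratio of 0.124 (95% interval 0.115 to 0.133), and the hepatocyte gene Alb stood at 38837 and 39811 CPM in GS-KO and control barcodes of at least 200 UMIs. There were 8108 barcode sequences present in both libraries. With a single mouse and library per group, the conditions could not be compared by a test. Every interval is a 95% interval (exact Poisson for a level, its conditional form for a ratio, Clopper-Pearson for a share), covers counting error only and says nothing about differences between mice or preparations. Intervals of levels, ratios and shares of UMIs take UMIs as independent. Where UMIs of the genes repeat within barcodes, as those of Ccl5 did, these intervals are too narrow.

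Molecules of the 10 genes were rare in both livers and more frequent in the GS-KO library. They summed to 1098 UMIs, or 19.6 CPM, in GS-KO barcodes and 255 UMIs, or 4.22 CPM, in control barcodes, a 4.64-fold higher level (4.05 to 5.34). At least 1 of them was found in 738 GS-KO and 142 control barcodes, 5.01-fold more often per barcode in GS-KO (4.18 to 6.04). Whether more lymphocytes were captured or each held more RNA cannot be told apart from summed levels. Without the barcode sequences present in both libraries the log2 ratio of the sum was 2.18, against 2.21 with them.

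Among the granule genes, Nkg7, which encodes a granule membrane protein of NK and T cells, had 153 UMIs in GS-KO and 22 UMIs in control, or 2.73 CPM in GS-KO and 0.364 CPM in control, a 7.5-fold higher level in GS-KO (4.78 to 12.3). Gzmb, the granzyme that cleaves caspase substrates, had 31 UMIs in GS-KO and 6 in control, which is 5.57-fold higher in GS-KO (2.29 to 16.3). Gzma, a trypsin-like granzyme, had 50 UMIs in GS-KO and 35 in control, or 0.893 CPM in GS-KO and 0.580 CPM in control. That ratio of 1.54 has an interval of 0.980 to 2.44, so the Gzma level did not differ beyond counting error. Prf1, which encodes perforin, was near the limit of detection with 8 UMIs in GS-KO and 3 in control (2.88-fold, 0.690 to 16.8).

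Of the secreted factors, Ccl5, a chemokine of activated T cells, NK cells and macrophages, was the most often counted, with 602 UMIs in GS-KO and 144 UMIs in control. It stood at 10.75 CPM in GS-KO and 2.384 CPM in control, a 4.51-fold higher level (3.75 to 5.44). Ifng, the gene of interferon-gamma, had 3 UMIs in GS-KO and 0 in control, both at or below the 3 counts taken as the floor, and no fold is given. The 0 in control allows up to 0.0497 CPM by that floor.

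The T cell receptor genes differed in the same direction. Cd3e, a signalling chain of the receptor complex, had 132 UMIs in GS-KO and 25 in control, or 2.36 CPM in GS-KO and 0.414 CPM in control, a 5.69-fold higher level (3.69 to 9.11). Trac, the constant region of the receptor's alpha chain, had 32 UMIs in GS-KO and 3 in control (11.5-fold, 3.6 to 58.7). Cd8a, a chain of the CD8 co-receptor, had 46 UMIs in GS-KO and 6 in control (8.27-fold, 3.52 to 23.7). The interval of Cd3e lies above that of Gzma, and the intervals of Cd3e, Trac and Cd8a overlap each other. Klrd1, the CD94 receptor chain of NK cells and some CD8 T cells, had 41 UMIs in GS-KO and 11 in control (4.02-fold, 2.03 to 8.67).

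Gzma therefore took a smaller part of the 10 genes' UMIs in GS-KO, at 4.55% (3.40 to 5.96), than in control, at 13.7% (9.75 to 18.6). The other shares lay closer together. Ccl5 made up 54.8% in GS-KO and 56.5% in control, Cd3e 12.0% in GS-KO and 9.80% in control, and Nkg7 13.9% in GS-KO and 8.63% in control. Gzma, Gzmb, Prf1 and Nkg7 together made up 22.0% (19.6 to 24.6) in GS-KO and 25.9% (20.6 to 31.7) in control, and Cd3e, Trac and Cd8a together 19.1% (16.8 to 21.6) in GS-KO and 13.3% (9.41 to 18.1) in control, with overlapping intervals in both cases.

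Most of the molecules lay in the smallest barcodes. Barcodes of under 400 UMIs held 853 of the GS-KO UMIs and 140 of the control UMIs of the 10 genes, or 77.7% in GS-KO and 54.9% in control, where they held 76.8% of all GS-KO UMIs and 63.0% of all control UMIs. The summed level there was 19.8 CPM in GS-KO and 3.68 CPM in control, 5.39-fold higher in GS-KO (4.50 to 6.49). Barcodes of 400 to under 500 UMIs gave 26.6 CPM in GS-KO and 5.07 CPM in control (5.24-fold, 3.78 to 7.30), and barcodes of 500 to under 1000 UMIs gave 19.0 CPM in GS-KO and 5.81 CPM in control (3.27-fold, 2.31 to 4.68). In barcodes of at least 1000 UMIs only 16 UMIs in GS-KO and 7 in control remained, 6.55 CPM in GS-KO and 3.21 CPM in control, and the ratio of 2.04 had an interval of 0.795 to 5.87.

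**Figure D1:**
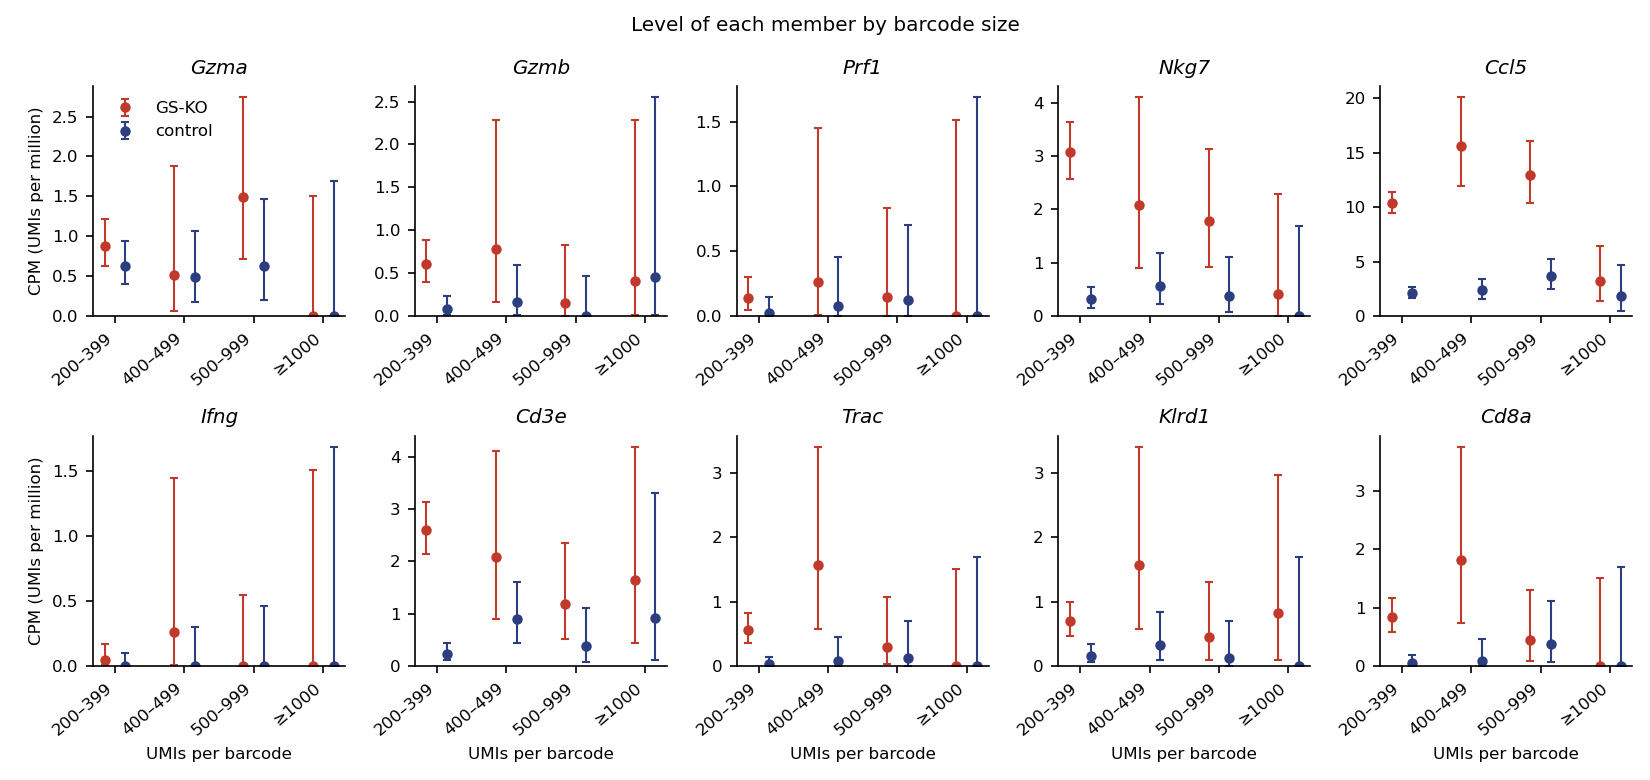
Level of each of the 10 genes (CPM, vertical axis, a separate scale per panel) in barcodes of 4 size classes (horizontal axis) in the GS-KO library (red) and the control library (blue). Points are CPM over the summed barcodes and bars are 95% Poisson intervals; GS-KO points lie above control points for Nkg7, Ccl5, Cd3e, Trac, Klrd1 and Cd8a in the smallest class, and at 1000 UMIs and above Gzma, Prf1, Ifng, Trac and Cd8a are at 0 in both libraries.

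Within the smallest class, Cd3e had 112 UMIs in GS-KO and 9 in control (11.0-fold, 5.60 to 24.7). Nkg7 had 132 UMIs in GS-KO and 12 in control (9.73-fold, 5.39 to 19.3), and Ccl5 447 in GS-KO and 82 in control (4.82-fold, 3.80 to 6.18). Cd8a had 36 UMIs in GS-KO and 2 in control (15.9-fold, 4.10 to 136.5), while Gzma had 38 in GS-KO and 24 in control (1.40-fold, 0.819 to 2.44). The interval of Gzma includes 1, and those of Cd3e, Nkg7, Ccl5 and Cd8a lie above it. At 1000 UMIs and above, Ccl5 had 8 UMIs in GS-KO and 4 in control, and Cd3e had 4 in GS-KO and 2 in control. Klrd1 had 2 and Nkg7 had 1 in GS-KO with 0 in control, and Gzmb had 1 in each. Gzma, Prf1, Ifng, Trac and Cd8a had 0 UMIs in the largest barcodes of both libraries, which allows a level of up to 1.23 CPM in GS-KO and 1.37 CPM in control. The values of the 10 genes that follow therefore rest almost wholly on barcodes of under 1000 UMIs.

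The members were read against all genes with the same minimum of 20 UMIs over both libraries. In barcodes of 200 to under 400 UMIs 7 of the 8 members that reached it were at least 2-fold higher in GS-KO, where 13.2% of 13688 genes were, and 4.25% were at least 2-fold lower. Over all barcodes of at least 200 UMIs it was again 7 of 8, beside 15.9% of 14951 genes higher and 4.01% lower. The median log2 ratio of those 8 was 2.44, beside 0.08 over all genes. Gzma was the 1 of 8 under 2-fold. Over all these barcodes Gzmb, Trac, Klrd1 and Cd8a reached the minimum only with their GS-KO UMIs, and in barcodes of 200 to under 400 UMIs so did Nkg7 and Cd3e, so that for them the minimum itself favoured a higher GS-KO level. Among genes with at least 20 control UMIs, a rule added after seeing the data, 3 of 4 members were at least 2-fold higher over all these barcodes, beside 10.8% of 13269 genes. In barcodes of 200 to under 400 UMIs it was 1 of 2, Ccl5, beside 7.95% of 12032 genes. In barcodes of 400 to under 500 UMIs Ccl5 alone reached the minimum and was at least 2-fold higher, as were 23.3% of genes, with 3.3% lower and a median log2 ratio over all genes of 0.27. In barcodes of 500 to under 1000 UMIs Ccl5 was again the only one, beside 15.6% of genes higher and 3.7% lower. None of the 10 reached the minimum at 1000 UMIs and above, where 12.8% of genes were higher and 5.6% lower.

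Single barcodes held several of the genes far more often than their separate frequencies gave. In GS-KO 140 barcodes and in control 31 barcodes held 2 or more of the 10 genes. If each gene had fallen into barcodes of a given size without regard to the others, 1.86 such barcodes were expected in GS-KO and 0.110 in control, which is a description of these libraries and not a test. The GS-KO number includes 24 barcodes with 3 or more genes and 3 with 4, and the control number includes 11 with 3 or more and 4 with 4. Per barcode, co-detection made up 0.0852% in GS-KO (0.0717 to 0.101) and 0.0196% in control (0.0133 to 0.0278), 4.36-fold more often in GS-KO (2.94 to 6.65).

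Thinning the barcodes lowered this ratio, with overlapping intervals. With each barcode thinned to 200 UMIs, co-detection was found in 69 GS-KO barcodes, or 0.0420%, and 23 control barcodes, or 0.0145%, a ratio of 2.89 (1.78 to 4.86), and smaller barcodes were left out. For 3 or more genes the ratio was 2.10, with an interval of 0.992 to 4.76. By size, 113 GS-KO and 18 control co-detected barcodes had under 400 UMIs, 12 GS-KO and 10 control had 400 to under 500, 14 GS-KO and 3 control had 500 to under 1000, and 1 GS-KO and 0 control had at least 1000. In the first 3 of these classes the ratio of shares was 5.09 (3.08 to 8.90), 3.86 (1.53 to 9.99) and 5.57 (1.56 to 30.25), with overlapping intervals. Of the co-detected barcodes 8 in GS-KO and 0 in control carried a sequence present in both libraries, and without such sequences 132 GS-KO and 31 control barcodes remained, a ratio of 4.09 (2.75 to 6.27).

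**Figure D2:**
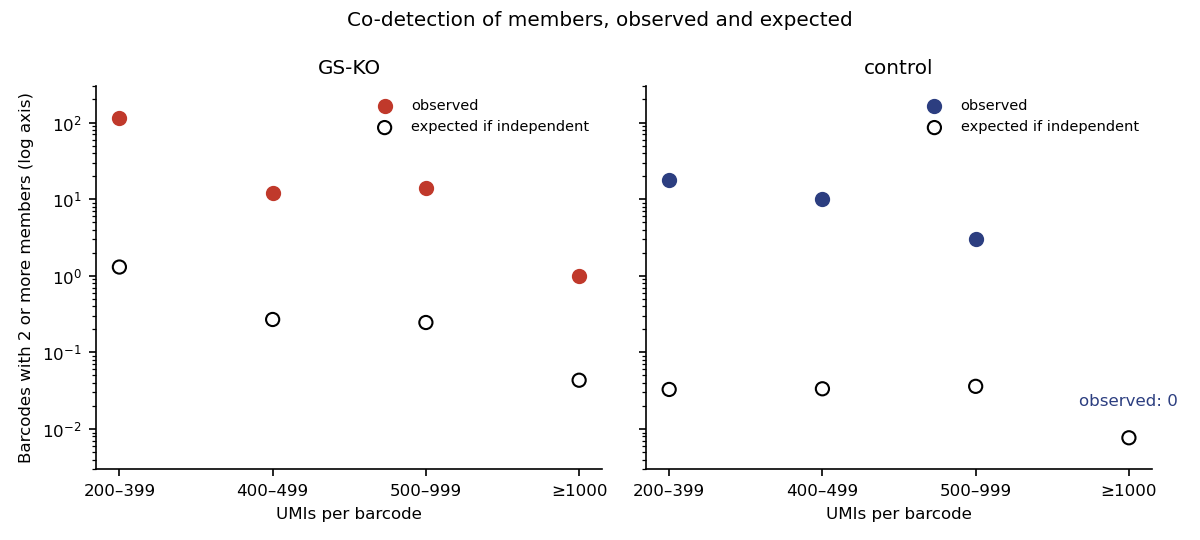
Number of barcodes with 2 or more of the 10 genes (vertical log axis) by barcode size (horizontal axis) in GS-KO (left) and control (right). Filled points are observed and open points are expected from the single frequencies; observed points lie above the open ones in every class except control barcodes of at least 1000 UMIs, where 0 were observed.

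Of the 45 possible pairs of genes, 27 were seen together in at least 1 GS-KO barcode and 18 in at least 1 control barcode, and 0 pairs were expected in as much as 1 barcode in either library. Nkg7 with Ccl5 was the most frequent pair in GS-KO, at 41 barcodes, against 12 in control, with 0.381 expected in GS-KO and 0.0121 in control. Ccl5 with Cd3e was seen in 35 GS-KO and 12 control barcodes, Ccl5 with Cd8a in 22 GS-KO and 2 control barcodes, and Gzma with Ccl5 in 19 GS-KO and 12 control barcodes. Pairs within the T cell receptor complex were rare at this depth: Cd3e with Trac was seen in 0 GS-KO barcodes and 1 control barcode, and Cd3e with Cd8a in 3 GS-KO and 1 control.

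**Figure D3:**
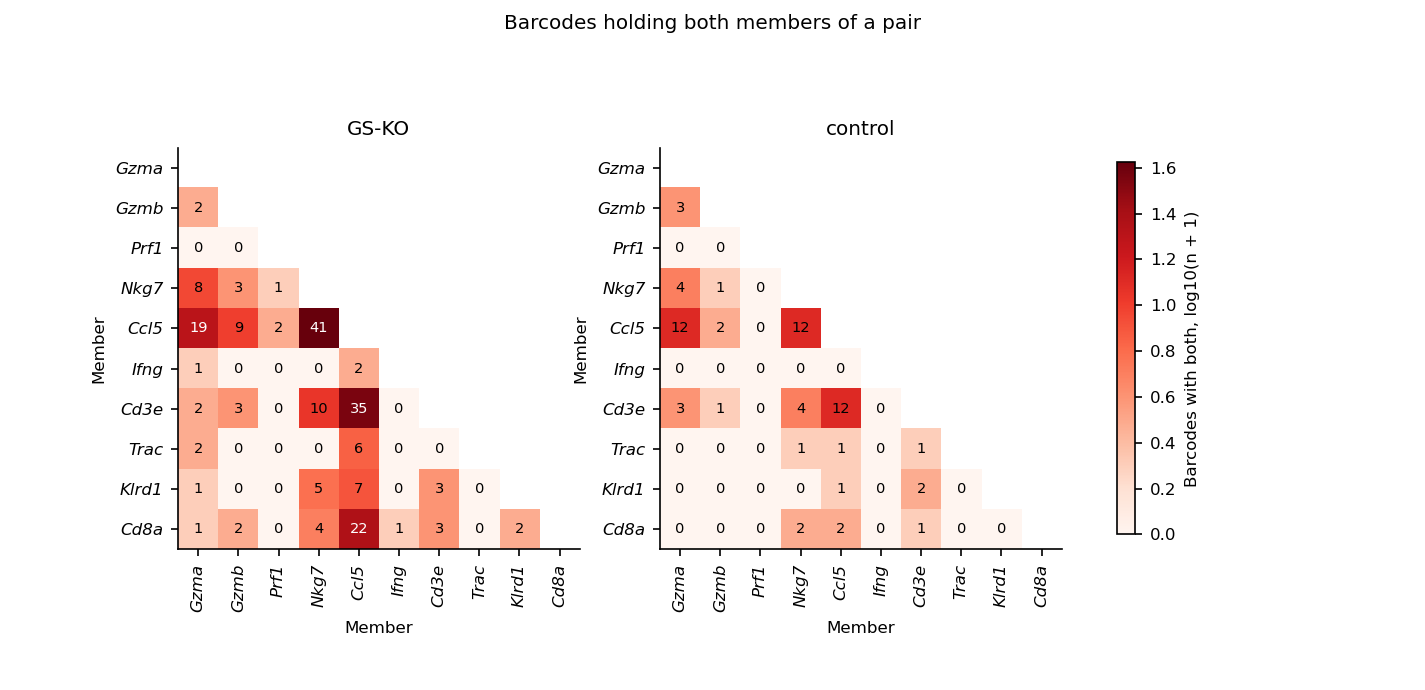
Number of barcodes of at least 200 UMIs that held both genes of a pair, for the GS-KO library (left) and the control library (right). Each square is 1 of 45 pairs, its colour is log10 of the number plus 1 and the number is printed in it; the darkest squares join Ccl5 with Nkg7, Cd3e, Cd8a and Gzma in GS-KO and Ccl5 with Nkg7, Cd3e and Gzma in control.

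The genes differed in how often they came with another of the set. Of the barcodes with Cd8a, 60.9% in GS-KO (28 of 46) and 33.3% in control (2 of 6) held at least 1 other member, and of those with Gzma 57.5% in GS-KO (40.9 to 73.0) and 46.7% in control (28.3 to 65.7) did. For Nkg7 the shares were 40.4% in GS-KO (32.1 to 49.2) and 68.4% in control (43.5 to 87.4), and for Cd3e 39.0% in GS-KO (30.4 to 48.2) and 58.3% in control (36.6 to 77.9). Ccl5 came with another member in 25.9% of its 448 GS-KO barcodes (21.9 to 30.2) and in 32.6% of its 86 control barcodes (22.8 to 43.5). Trac was the least accompanied in GS-KO, at 18.8% of 32 barcodes (7.21 to 36.4), beside 1 of 3 in control. Intervals of GS-KO and control overlapped for every one of these genes.

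Since Ccl5 supplies most pairs, co-detection was also read by kind of gene. Ccl5 was present in 116 of the 140 GS-KO co-detected barcodes, or 82.9% (75.6 to 88.7), and in 28 of the 31 control ones, or 90.3% (74.3 to 98.0). A granule or interferon gene (Gzma, Gzmb, Prf1, Nkg7 or Ifng) without Cd3e, Trac or Cd8a was found in 56 GS-KO barcodes, or 40%, and 16 control barcodes, or 51.6%. A T cell gene without a granule or interferon gene was found in 56 GS-KO barcodes, or 40% (31.8 to 48.6), and 8 control barcodes, or 25.8% (11.9 to 44.6). Both kinds were present in 23 GS-KO and 7 control barcodes. Absence of a gene from so small a barcode does not show that the cell lacked it.

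Each gene was also looked up in barcodes chosen by 2 or more of the other 9. Ccl5 was then found in 24 of 48 GS-KO barcodes and 10 of 13 control barcodes, at 2227 CPM in GS-KO and 3413 CPM in control, against 10.0 CPM in the other GS-KO barcodes and 2.09 CPM in the other control barcodes. Nkg7 was found in 15 of 100 GS-KO and 8 of 26 control barcodes, Gzma in 11 of 128 GS-KO and 6 of 23 control barcodes, and Cd3e in 7 of 99 GS-KO and 7 of 24 control barcodes. Ccl5 also repeated within barcodes: 66 GS-KO and 16 control barcodes held 2 Ccl5 UMIs, and 35 GS-KO and 15 control barcodes held 3 or more, with a highest number of 7 in GS-KO and 6 in control. Spread by depth alone, Ccl5 would have given 1.32 GS-KO and 0.0749 control barcodes with 2 or more.

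The fullest single barcodes show what these small profiles hold. A GS-KO barcode of 306 UMIs carried 12 UMIs of the set, namely 7 of Ccl5, 3 of Nkg7 and 1 each of Gzma and Klrd1, together with 1 UMI each of Fcer1g, Klra4 and the NK receptor gene Ncr1, and no Cd3e, Trac or Cd8a. Another GS-KO barcode, of 325 UMIs, held Gzmb, Nkg7, Cd3e and 2 UMIs of Ccl5, with Cd3d and Cd8b1. In control a barcode of 510 UMIs held 4 UMIs of Ccl5 and 1 each of Nkg7, Cd3e and Trac, and a barcode of 373 UMIs held Gzma, Gzmb, 2 UMIs each of Nkg7 and Ccl5, and Cd3g.

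The co-detected barcodes were set against those with none of the 10 genes, on genes that did not choose them. T cell markers other than the members gave 42 UMIs in the GS-KO co-detected barcodes, a CPM 155.5-fold that of GS-KO barcodes with none (109.7 to 215.3), and 5 UMIs in the control ones, 568-fold (176 to 1429). NK cell markers other than the members gave 17 UMIs in GS-KO, 81.7-fold (46.8 to 133.7), and 9 UMIs in control, 4092-fold (1499 to 10862), the last against 11 UMIs in all control barcodes with none. B cell markers had 2 UMIs in the GS-KO co-detected barcodes and 0 in the control ones, plasma cell markers 1 in GS-KO and 0 in control, and markers of mast cells and basophils 0 in both.

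Markers of other liver cells gave mixed values in these barcodes. The level of Kupffer cell markers was 0.760 times that of barcodes with none in GS-KO (0.541 to 1.04) and 1.00 times in control (0.121 to 3.63). Hepatocyte markers stood at 0.828 times (0.801 to 0.855) in GS-KO and 0.851 times (0.798 to 0.907) in control, so hepatocyte RNA made up nearly as much of a co-detected barcode as of any other. Markers of monocytes and neutrophils were at 1.39 times in GS-KO (1.05 to 1.79) and 0.836 times in control (0.228 to 2.14). Stellate cell and fibroblast markers stood at 0.560 times in GS-KO (0.269 to 1.03) and 2.57 times in control (1.23 to 4.73), and sinusoidal endothelial markers at 0.973 times in GS-KO (0.556 to 1.58) and 2.16 times in control (0.931 to 4.25). Co-detected barcodes had a median of 326.5 UMIs in GS-KO and 394 in control, against 309 in GS-KO and 356 in control barcodes with none, and 5.14% ribosomal protein UMIs in GS-KO and 6.13% in control, against 2.44% in GS-KO and 2.75% in control barcodes with none. Their median mitochondrial share was 7.10% in GS-KO and 7.11% in control, against 7.88% in GS-KO and 8.74% in control barcodes with none.

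**Figure D4:**
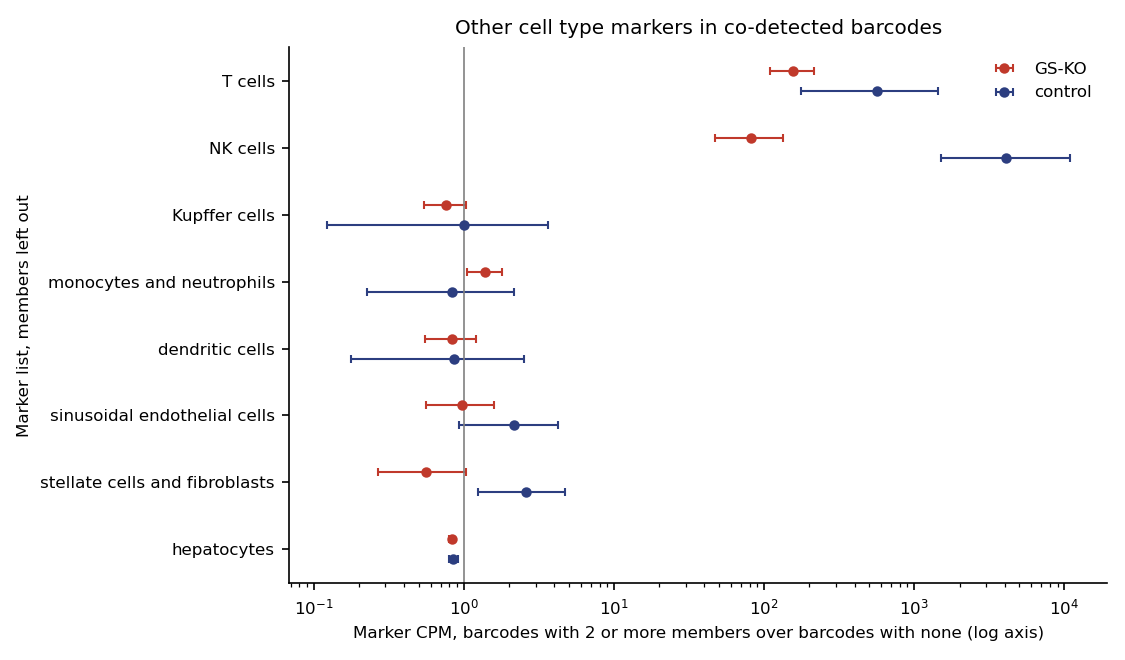
Summed level of cell type markers, members left out, in barcodes with 2 or more of the 10 genes over barcodes with none (horizontal log axis) for the GS-KO library (red) and the control library (blue), with 95% counting intervals. T and NK cell markers lie far to the right of 1 in both libraries, at 155.5-fold and 81.7-fold in GS-KO, while the intervals of Kupffer cell markers span 1 in both and stellate markers lie above 1 in control.

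Barcodes whose single member was Ccl5 were of a more mixed kind in GS-KO. There were 332 of them in GS-KO and 58 in control, and T cell markers stood at 71.1 times the level of barcodes with none in GS-KO (51.5 to 96.5) and 316 times in control (110 to 744). Kupffer cell markers stood at 2.29 times in GS-KO (2.03 to 2.56) and 1.16 times in control (0.377 to 2.71). Of barcodes with 3 or more Kupffer marker UMIs, 36 of 4625 in GS-KO, or 0.778% (0.546 to 1.08), and 1 of 988 in control, or 0.101% (0.00256 to 0.563), held Ccl5. The median depth of those barcodes was 425 UMIs in GS-KO and 429 UMIs in control. In GS-KO the Ccl5 level in them was 23.8 CPM (17.8 to 31.2), against 10.75 CPM over all barcodes of at least 200 UMIs. Cd3e was found in 1 of the 4625 GS-KO and 0 of the 988 control barcodes, where 0 of the control barcodes allows up to 0.304%.

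In cells that should lack the genes, stellate-marked barcodes held Cd3e in 0 of 1157 in GS-KO, which allows a share of up to 0.259%, and in 1 of 1069 in control. They held Ccl5 in 3 of 1157 in GS-KO, or 0.259%, and 3 of 1069 in control, or 0.281%, with median depths of 421 UMIs in GS-KO and 465 in control. Over all barcodes of at least 200 UMIs the share with Ccl5 was 0.273% in GS-KO and 0.0543% in control. The control stellate-marked share, on 3 barcodes, thus lay above that of all control barcodes. Leaving out the Kupffer-marked barcodes left 136 GS-KO and 31 control co-detected barcodes and the same log2 ratio of 2.10.

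Marker RNA of other immune cells of the liver was also higher in the GS-KO library, so the members were also expressed per marker UMI. Over all barcodes of at least 200 UMIs, 9 of 10 Kupffer cell markers, 9 of 10 markers of monocytes and neutrophils, 8 of 9 dendritic cell markers and 5 of 6 B cell markers that reached the minimum were at least 2-fold higher in GS-KO, with median log2 ratios of 2.75, 2.84, 2.59 and 2.13. Of these, 2 monocyte and neutrophil, 5 dendritic cell and 3 B cell markers reached the minimum only with their GS-KO UMIs. Among markers with at least 20 control UMIs, 9 of 10 for Kupffer cells, 7 of 8 for monocytes and neutrophils, 3 of 4 for dendritic cells and 2 of 3 for B cells were higher, beside the 10.8% of genes. Plasma cell markers were higher in 6 of 8. Markers of sinusoidal endothelial cells were higher in 1 of 10 and those of stellate cells and fibroblasts in 3 of 10, with medians of 0.37 and 0.24, and 0 of 12 hepatocyte markers were higher while 2, Cyp2e1 and Pck1, were lower. Both of the 2 cholangiocyte markers measured were higher, with a median of 2.59, and Sox9, a factor of bile duct cells, had 1175 UMIs in GS-KO and 107 in control (11.8-fold, 9.71 to 14.6). Spp1, the other of the 2, had 61 in GS-KO and 21 in control. Epcam, Krt7 and Krt19 had 7, 3 and 8 UMIs in GS-KO, against 3, 1 and 2 in control. Their intervals include 1, and Cftr had 0 in both, so a rise across the list is not shown. The part of these differences in the members' levels was not tested.

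Per 1000 Kupffer marker UMIs the 10 genes gave 19.4 UMIs in GS-KO and 25.6 in control, a ratio of 0.759 (0.662 to 0.873). Per 1000 B cell marker UMIs they gave 907 in GS-KO and 820 in control, a ratio of 1.11 (0.964 to 1.27). Per 1000 monocyte and neutrophil marker UMIs they gave 23.8 in GS-KO and 10.6 in control, a ratio of 2.23 (1.95 to 2.57). F10 alone supplied 28406 of those 46172 marker UMIs in GS-KO and 21099 of 23961 in control, and was 1.45-fold higher (1.43 to 1.48). The ratio of 2.23 therefore rests mainly on F10. The median log2 ratio of the 10 monocyte and neutrophil markers was 2.84, beside 2.44 for the members. Against sinusoidal endothelial markers the ratio was 4.42 (3.86 to 5.09), and against stellate markers it was 4.27 (3.72 to 4.91). Single genes weighed on other sums too. Bank1, 4.41-fold higher in GS-KO, supplied 862 of 1211 B cell marker UMIs in GS-KO and 211 of 311 in control. Dpp4, at 0.862-fold, supplied 8532 of 18096 endothelial marker UMIs in GS-KO and 10667 of 18585 in control. Cd3e per Kupffer marker UMI had a ratio of 0.931 (0.604 to 1.49), while Gzma had 0.252 (0.160 to 0.400). The summed excess of the 10 genes in GS-KO was thus as large as that of the B cell marker sum, which is mainly Bank1, within counting error. It was smaller than that of the Kupffer cell marker sum and larger than that of the endothelial and stellate sums. Against monocyte and neutrophil markers no order is given, because F10 dominates their sum.

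**Figure D5:**
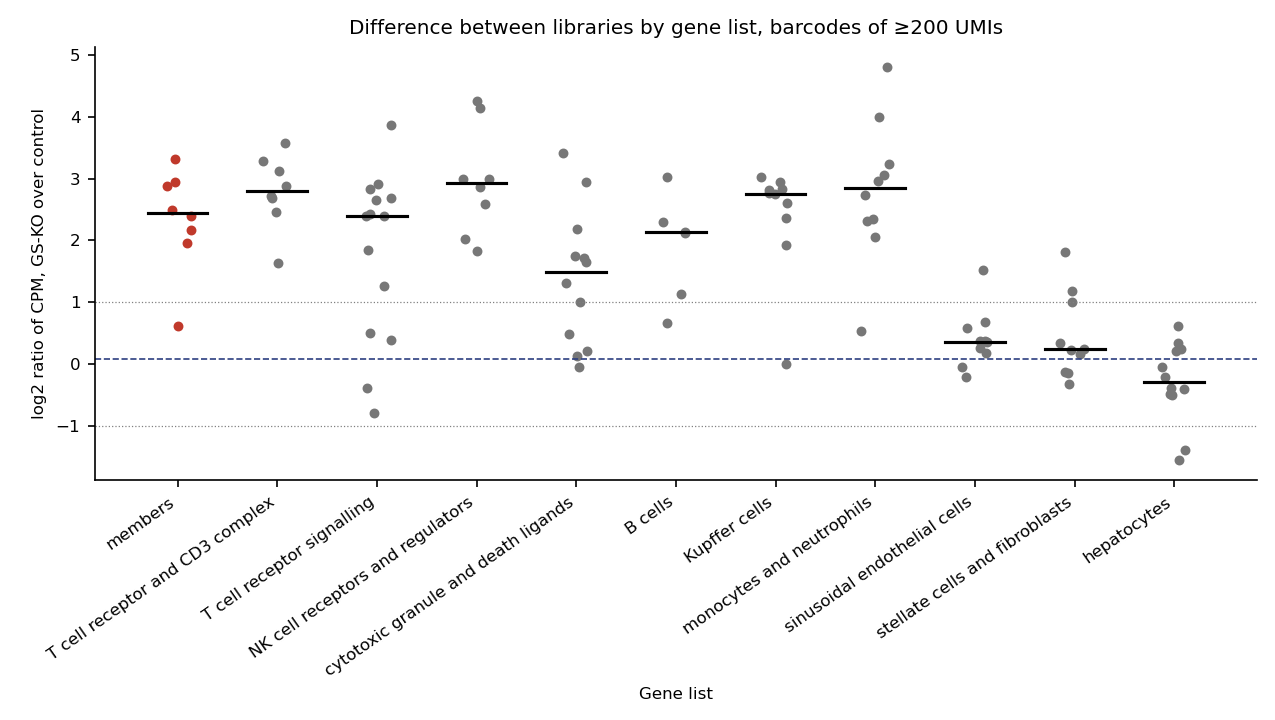
log2 ratio of CPM, GS-KO over control, of single genes (points) in barcodes of at least 200 UMIs for the 10 genes (red, 8 that reached 20 UMIs) and other lists (grey), with the list median as a black bar. Dotted lines mark 2-fold and the dashed line marks the median of all genes, 0.08; the T cell receptor, signalling, NK, granule, B cell, Kupffer and monocyte lists drawn here have medians between 1.48 and 2.93, and endothelial, stellate and hepatocyte lists between -0.30 and 0.37.

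The genes with the pattern most like the 10 were found by the ratio of their CPM in co-detected barcodes to that in the other barcodes of at least 200 UMIs, both libraries summed, among 836 genes with a UMI in at least 10 co-detected barcodes. The 15 highest were Cd7, Grap2, Cd3g, Gimap7, Gimap3, Cd226, Cd3d, Trbv1, Skap1, S100a6, Cd52, Cnn2, Sept1, Il2rg and Tmsb10. Cd7, a surface protein of T and NK cells, led with a ratio of 483 and was found in 16 of the GS-KO and 6 of the control co-detected barcodes. Cd3g and Cd3d, the partner chains of Cd3e, had ratios of 311.5 and 241. Each was found in 10 GS-KO co-detected barcodes, with 3 control ones for Cd3g and 0 for Cd3d. Trbv1, a variable segment of the T cell receptor beta chain, was found in 20 GS-KO co-detected barcodes and in 0 of the control ones. These 15 ratios rest on between 10 and 64 UMIs per gene in the co-detected barcodes, and the genes share the same barcodes and depth.

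In the wider T cell receptor complex, all 8 of the 13 listed genes that reached 20 UMIs were at least 2-fold higher in GS-KO, beside 15.9% of all genes, with a median log2 ratio of 2.80. All 8 reached the minimum only with their GS-KO UMIs, so the minimum largely fixed this count and it only describes the genes. Cd3d had 93 UMIs in GS-KO and 11 in control (9.12-fold, 4.87 to 18.9), Cd3g 94 in GS-KO and 10 in control (10.1-fold, 5.27 to 21.8) and Cd247, the zeta chain, 38 in GS-KO and 3 in control (13.7-fold, 4.33 to 69.2). Cd4, the co-receptor of helper T cells that some dendritic cells also carry, had 68 UMIs in GS-KO and 11 in control, and Cd8b1, the partner of Cd8a, had 37 in GS-KO and 5 in control. The costimulatory genes Cd2 and Icos had 33 and 89 UMIs in GS-KO, against 5 and 17 in control. Of the GS-KO UMIs, barcodes with none of the 10 genes held 67 of Cd4, 85 of Icos, 50 of Cd3d and 56 of Cd3g. The co-detected GS-KO barcodes held 0, 1, 12 and 12 of these.

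Of the receptor's signalling genes, 10 of the 14 measured were higher and 0 were lower past 2-fold, and with at least 20 control UMIs 3 of 6 were higher. Over all genes 15.9% were higher and 4.01% lower, and with at least 20 control UMIs 10.8% were higher. Themis, which sets signalling during T cell development, had 60 UMIs in GS-KO and 4 in control (16.2-fold, 6.0 to 61.3), and the kinase gene Lck had 41 UMIs in GS-KO and 8 in control. The adaptor gene Skap1 had 98 UMIs in GS-KO and 16 in control, and the transcription factor genes Nfatc2 and Bcl11b had 24 and 17 in GS-KO, against 3 each in control. Lcp2 and Ptprc, which myeloid cells also express, had 1104 and 1782 UMIs in GS-KO, against 166 and 305 in control. Zap70, the kinase recruited to the receptor, ran the other way at 594 UMIs in GS-KO and 1111 in control (0.576-fold, 0.521 to 0.637), and Tcf7, a factor of naive and memory T cells, had 191 in GS-KO and 270 in control. Barcodes with none of the 10 genes held 587 GS-KO and 1109 control UMIs of Zap70, and 181 and 270 of Tcf7. The co-detected barcodes held 0 and 1 of Zap70, and 4 and 0 of Tcf7. These 2 differences therefore do not describe the co-detected barcodes. Most GS-KO UMIs of higher genes lay in barcodes with none as well, with 1085 of Lcp2, 1693 of Ptprc, 31 of Lck and 67 of Skap1. The co-detected GS-KO barcodes held 5, 24, 3 and 8 of these. The rises are of levels summed over all barcodes and do not describe the co-detected barcodes either. Fyn had 479 UMIs in GS-KO and 365 in control, and Prkcq 112 in GS-KO and 50 in control. Thy1 had 22 UMIs in GS-KO and 18 in control (1.32-fold, 0.675 to 2.61). The measured genes that were not at least 2-fold higher were thus Zap70, Tcf7, Fyn and Thy1.

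All 8 NK receptor and regulator genes that reached the minimum, of 23 listed, were at least 2-fold higher, beside 15.9% of all genes, with a median of 2.93. Of these, 6 reached it only with their GS-KO UMIs, and the 2 with at least 20 control UMIs were Fcer1g and Tyrobp. Klrk1, the NKG2D receptor of NK cells and CD8 T cells, had 222 UMIs in GS-KO and 12 in control (19.95-fold, 11.2 to 39.2). Cd226 and Cd244a, activating receptors, had 70 and 40 UMIs in GS-KO, against 9 and 5 in control, and Klrc1, the partner of Klrd1, had 24 in GS-KO and 6 in control. Tbx21, the T-bet factor of cytotoxic cells, had 24 UMIs in GS-KO and 1 in control. Fcer1g and Tyrobp, signalling adaptors that macrophages also use, had 6035 and 6733 UMIs in GS-KO, against 890 and 1207 in control. The NK receptor gene Ncr1, with 15 UMIs in GS-KO and 4 in control, did not reach the minimum, and Eomes had 2 UMIs in each library.

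Other granule and death ligand genes were more divided: 7 of 12 measured were at least 2-fold higher and 0 lower, beside 15.9% and 4.01% of all genes. With at least 20 control UMIs 5 of 10 were higher, beside 10.8% of all genes. Ctsw, a protease of cytotoxic cells, had 74 UMIs in GS-KO and 7 in control (11.4-fold, 5.26 to 29.3), Serpinb6b, a granzyme inhibitor, 355 in GS-KO and 49 in control, and Stx11, a fusion protein of granule release, 86 in GS-KO and 20 in control. Barcodes with none of the 10 genes held 43, 349 and 86 of these GS-KO UMIs, and co-detected ones 6, 1 and 0. Serpinb9, which inhibits granzyme B, had 1114 UMIs in GS-KO and 481 in control, and Srgn, the granule proteoglycan, 1432 in GS-KO and 458 in control. Ctsc, which activates granzymes, was at 2.00-fold. Genes that most cells use were closer to equal, with Lamp1 at 0.968-fold (0.954 to 0.982), Ctsd at 1.16-fold and Stxbp2 at 1.10-fold (0.986 to 1.22).

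Although Ifng itself was at or below the floor, 17 of 23 measured genes of its receptor and targets were at least 2-fold higher in GS-KO and 0 lower, with a median log2 ratio of 2.10. Over all genes 15.9% were higher and 4.01% lower. With at least 20 control UMIs 12 of 18 were higher, beside 10.8% of all genes. Cxcl9 and Cxcl10, chemokines that draw CXCR3-bearing T cells, had 2939 and 2267 UMIs in GS-KO, against 142 and 52 in control, 22.3-fold (18.9 to 26.6) and 47.0-fold (35.7 to 63.1) higher. Tgtp1, an interferon-induced GTPase, had 274 UMIs in GS-KO and 6 in control, and Ciita, the regulator of MHC class II genes, 352 in GS-KO and 18 in control. The guanylate-binding protein genes Gbp2, Gbp3 and Gbp5 had 988, 741 and 268 UMIs in GS-KO, against 119, 86 and 36 in control. Gbp4, Gbp6, Tgtp2, Irf1 and Socs1 were between 4.13-fold and 10.3-fold higher. Nos2 had 82 UMIs in GS-KO and 0 in control. The receptor chain gene Ifngr2 was 2.25-fold higher, while Jak1 was at 1.12-fold and Iigp1 at 1.34-fold. Many of these genes also respond to type I interferon, and the summed level of the list in co-detected barcodes was 1.20 times that of barcodes with none in GS-KO (0.962 to 1.49) and 2.33 times in control (1.44 to 3.55).

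Among cytokines and receptors of lymphocytes, 13 of 19 measured were higher and 0 lower, beside 15.9% and 4.01% of all genes. With at least 20 control UMIs 3 of 9 were higher, beside 10.8% of all genes. Cxcr3, the receptor of Cxcl9 and Cxcl10, had 53 UMIs in GS-KO and 4 in control (14.3-fold, 5.26 to 54.4), and Cxcr6, a receptor of liver-resident T and NK cells, 81 in GS-KO and 6 in control (14.6-fold, 6.40 to 40.8). The chemokine receptor genes Ccr1 and Ccr3, whose products bind Ccl5, had 85 and 797 UMIs in GS-KO, against 2 and 107 in control. Barcodes with none of the 10 genes held 84 and 795 of these GS-KO UMIs, and co-detected ones 1 each. Il21r and Il18r1, receptors of activated lymphocytes, had 35 and 34 UMIs in GS-KO, against 1 and 4 in control. Il7 and its receptor gene Il7r had 76 and 45 in GS-KO, against 10 and 6 in control. Il15, Il15ra, Il18, S1pr1 and S1pr5, with many UMIs in both libraries, were between 0.718-fold and 1.42-fold.

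Of inhibitory receptors and ligands, 7 of 9 measured were higher and 1, Tox, was lower, beside 15.9% and 4.01% of all genes. With at least 20 control UMIs 4 of 6 were higher, beside 10.8% of all genes. Cd274, the ligand PD-L1, had 338 UMIs in GS-KO and 25 in control (14.6-fold, 9.70 to 22.9), and the inhibitory receptor genes Lag3, Havcr2 and Btla had 147, 111 and 44 UMIs in GS-KO, against 43, 36 and 9 in control. Entpd1, an ectonucleotidase, had 784 UMIs in GS-KO and 180 in control. Tox, a factor of exhausted T cells in other settings, had 401 UMIs in GS-KO and 3913 in control (0.111-fold, 0.0995 to 0.123). Barcodes with none of the 10 genes held 391 of these in GS-KO and 3902 in control. In barcodes of at least 1000 UMIs Tox stood at 65.9 CPM in GS-KO and 684 CPM in control. The co-detected barcodes held 3 Tox UMIs in GS-KO and 2 in control. They held 0 of Lag3, Havcr2 and Btla in both libraries, and 2 of Cd274 and 3 of Entpd1 in GS-KO. Of the regulatory T cell and innate lymphoid genes measured, 0 of 5 were higher and 1, Zbtb16, was lower at 2416 UMIs in GS-KO and 5863 in control, while Rora, Ikzf2 and Kit were between 1.04-fold and 1.81-fold and Foxp3, the factor of regulatory T cells, had 8 UMIs in GS-KO and 7 in control. Of the Zbtb16 UMIs, 2400 in GS-KO and 5850 in control likewise lay in barcodes with none of the 10 genes.

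On the side of the target cells, 7 of 16 genes of recognition and death were higher and 0 lower, beside 15.9% and 4.01% of all genes, with a median of 0.61. With at least 20 control UMIs 5 of 14 were higher, beside 10.8% of all genes. The MHC class I genes H2-K1 and H2-D1 were 2.83-fold (2.79 to 2.88) and 2.79-fold (2.75 to 2.82) higher in GS-KO and B2m was 1.42-fold higher. Fas, the death receptor, was 2.19-fold higher (2.08 to 2.31), and H60b, a ligand of the Klrk1 receptor, had 77 UMIs in GS-KO and 5 in control. Serpina3g had 274 UMIs in GS-KO and 55 in control. Bax was at 1.42-fold and Cflar at 0.965-fold.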

How the data were processed

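Per the labels, 1 GS-KO and 1 control mouse liver gave 1 10x library each. The deposited values are raw UMI counts per gene and barcode, made by the authors with Cell Ranger (version 8.0.0, per the file headers) on mm10 per the submitters' processing notes, and are not normalized. The sources used here do not state how the deposited barcodes were chosen. Counts were summed over barcodes of a size class and divided by that class's UMIs (CPM). No barcode was removed for mitochondrial content, and doublets were left untreated. log2 ratios have 0.5 counts added to each sum. Genes with at least 20 UMIs over both libraries were compared with a 2-fold limit, and a count of 0 was read against a floor of 3 counts. Expected co-detection used the share of barcodes with each gene in 23 bins of barcode size. Barcodes were called marked at 3 or more UMIs of a marker list.

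The members and the 21 other lists (257 listed genes in all, 3 of them not among the files' gene names) were chosen with earlier results of these data known. All members are named. Of each other list, the rule takes up to 6 genes with the most UMIs and any gene over 4-fold apart with at least 20 UMIs, and of all other genes the 15 most like the members. Of marker lists the text gives counts and named exceptions. Some listed genes that the rule takes are not reported here. Ratio and interval steps were tested on simulated independent Poisson counts, which leave out the repeats of UMIs within barcodes. Alternatives covered denominators, barcode limits, shared barcode sequences, added counts, minimum UMIs, thinning (seed 1) and leaving out members. Scripts ran on Python 3.11.15 with scipy 1.17.1, numpy 2.4.6, pandas 2.3.3 and matplotlib 3.10.9. UMIs limit but do not remove amplification effects, and the precision of each value is set by its UMI number.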

Additional observations from a re-analysis of the deposited data

Results flagged for a closer look

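Barcodes under 200 UMIs were outside the comparisons above, and the GS-KO ones held the genes too. They numbered 11607 in GS-KO and 7544 in control. The 10 genes summed to 39 UMIs there in GS-KO, against 2 UMIs in control (12.4-fold higher per UMI, 3.20 to 105.6). Ccl5 had 23 UMIs in GS-KO and 0 in control, and Nkg7 had 6 UMIs in GS-KO and 0 in control. With control set at the floor of 3 counts, the ratios would be 4.86 for Ccl5 and 1.27 for Nkg7. These 2 values leave out the counting error of the GS-KO UMIs and are not lower limits. The intervals of Nkg7 overlap, at 1.13 to 6.68 CPM in GS-KO and 0 to 2.98 CPM in control.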

How the results depend on the processing

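Of 160 alternative values, 145 lay within the counting error or 1.5 times the count reported, and 15 moved further. A reversal could be recorded only for ratios past 2-fold, and 0 of those reversed. Counts, levels and smaller ratios, among them those of Gzma and of the sum at 1000 UMIs and above, could not be recorded as reversed. With a minimum of 20 UMIs in control alone, chosen after seeing the data, 3 members over all barcodes of at least 200 UMIs and 1 in those of 200 to under 400 were at least 2-fold higher, against 7 in each. The same minimum left 0 T cell receptor and CD3 complex genes, 3 signalling genes, 2 NK genes, 3 cytokine genes and 4 inhibitory genes higher, against 8, 10, 8, 13 and 7. With a minimum of 5 UMIs per gene, 7 members in barcodes of 400 to under 500 UMIs and 4 in those of 500 to under 1000 were at least 2-fold higher in GS-KO, against 1 in each at 20 UMIs, and 1 regulatory T and innate lymphoid gene was higher, against 0. The log2 ratio of the co-detected share, 2.10, was 1.51 with barcodes thinned to 200 UMIs and 1.04 for 3 or more genes, and it lay between 1.79 without Ccl5 and 2.40 without Gzma. With each gene read only in barcodes chosen by the others, the summed level in co-detected barcodes was 3821 CPM in GS-KO and 6199 CPM in control, against 7665 and 9118 CPM. Counting each barcode once gave Ccl5 a log2 ratio of 2.48, against 2.17. Leaving out Kupffer-marked barcodes, chosen after seeing the data, left the log2 ratio of the co-detected share at 2.10. No paired analysis was possible because each group is 1 library. Depth limits Ifng, Prf1 and all members at 1000 UMIs and above, where counts of a few UMIs cannot show a difference.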
